A study of Mus musculus with 12 samples.

Results

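The miRNAs described here carry numbers from 600 up to, but not including, 1000 and are mostly little-studied rodent entries on a mouse TaqMan OpenArray panel. A panel assay was taken as a member when its name has a number in that range and no # sign (which marks the minor strand of a hairpin in the older naming), and 10 numbers were left out. The rule gave 61 of the 619 miRNA assays, 40 with a mouse, 13 with a human and 8 with a rat prefix in their name. They cover 55 numbers, of which 19 were listed as having a human counterpart. The list is not complete, as miR-632, a human entry too, is not on it. The human and rat assays for miR-653, and the mouse and rat assays for miR-881, share a name and are not independent readings.

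The study asked which hippocampal miRNAs depend on the P2X7 receptor, an ATP-gated ion channel, in control mice and after status epilepticus. Male C57BL/6 mice, 8 weeks old by the labels, were wild type (wt) or P2rx7-/-, a line without exon 2 of P2rx7, and received either 0.3 µg kainic acid in the basolateral amygdala, which gave status epilepticus (SE), or PBS vehicle (kainic acid 0 µg). All received lorazepam (6 mg/kg) 40 min later, and the ipsilateral hippocampus was taken 8 h after the injection. Each of the 12 samples pooled 2 hippocampi, 1 from each of 2 mice, and there were 3 samples in each of 4 groups: vehicle-treated wt (wt control), vehicle-treated P2rx7-/- (P2rx7-/- control), and both genotypes after SE (wt post-SE and P2rx7-/- post-SE). P2rx7 mRNA is not on a miRNA panel, so the genotype was not checked from these data.

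A miRNA is cut from a hairpin precursor that yields a 5p and a 3p arm, and the loaded arm pairs with target mRNAs mainly through its seed, the bases from position 2 to 8. Many of the higher-numbered mouse miRNAs came from sequencing of small RNA and are known only from rodents. Some entries overlap other abundant RNA, with miR-720 matching a tRNA fragment, miR-805 mitochondrial RNA, and miR-712 and miR-715 the spacers of the ribosomal RNA precursor.

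Of the 61 member names, 51 were found among the RefSeq mouse miRNAs placed on GRCm38.p6: 28 by their exact name, 22 with names that do not say which arm is read, and 1, miR-874, as a hairpin alone. For assays with a human or rat prefix the sequence is that of the mouse miRNA with the same name. No entry was found for miR-632, miR-694, miR-696, miR-712, miR-715, miR-720, miR-805, miR-873 and both arms of miR-875. Of the matched members, 15 lie on the X chromosome and 38 within the span of a gene that is not a miRNA gene. The strand of the gene was not compared, so lying within a gene does not show transcription from it. In the sequences that follow, written 5′ to 3′, capitals mark the seed.

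The first set holds the members whose levels between groups, or in single samples, are described most fully. Since the assay names of miR-701 and miR-672 give no arm, both arms are printed.
mmu-miR-701-5p: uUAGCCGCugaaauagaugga
mmu-miR-701-3p: uAUCUAUUaaagaggcuagc
mmu-miR-690: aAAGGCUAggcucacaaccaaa
mmu-miR-935: cCCAGUUAccgcuuccgcuaccgc
mmu-miR-704: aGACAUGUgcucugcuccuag
mmu-miR-671-3p: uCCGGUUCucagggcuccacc
mmu-miR-671-5p: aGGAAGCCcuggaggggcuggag
mmu-miR-672-5p: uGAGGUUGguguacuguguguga
mmu-miR-672-3p: aCACACAGucacuaucuucga
The arms of miR-701 lie at chr5:111004170-111004190 and chr5:111004208-111004227 on the plus strand, within Ttc28. miR-690 lies at chr16:28599940-28599961 on the minus strand within Fgf12, whose product modulates voltage-gated sodium channels. miR-935 lies at chr7:3415120-3415143 on the plus strand within Cacng8, which encodes an auxiliary subunit of AMPA receptors. miR-704 lies at chr6:47803590-47803610 on the minus strand within Pdia4, the gene of a disulfide isomerase of the endoplasmic reticulum. The miR-671 arms lie at chr5:24592171-24592191 and chr5:24592132-24592154 on the plus strand, at Chpf2, an enzyme gene of chondroitin synthesis.

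The second set shows miR-721, which shares its seed AGUGCAA with 6 other mouse miRNAs, the miR-130 and miR-301 family among them.
mmu-miR-721: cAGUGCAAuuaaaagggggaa
mmu-miR-130a-3p: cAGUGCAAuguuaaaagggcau
mmu-miR-130b-3p: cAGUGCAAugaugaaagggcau
mmu-miR-130c: cAGUGCAAuguuccaaggugug
mmu-miR-301a-3p: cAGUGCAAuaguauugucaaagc
mmu-miR-6341: cAGUGCAAugauauugucacuau
mmu-miR-6389: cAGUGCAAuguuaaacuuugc
miR-721 lies at chr5:136375777-136375797 on the minus strand within Cux1, a transcription factor gene.

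The third set holds members described for the samples in which they were detected, and miR-743a and miR-871 are printed together because their 5p arms share a seed and they belong to a cluster on the X chromosome. The assay names of miR-743a, miR-871, miR-670, miR-708, miR-744 and miR-676 give no arm, so both are printed, except for miR-676, for which the table holds the 3p arm alone.
mmu-miR-743a-5p: uAUUCAGAuuggugccugucau
mmu-miR-871-5p: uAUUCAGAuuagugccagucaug
mmu-miR-743a-3p: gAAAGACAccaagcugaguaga
mmu-miR-871-3p: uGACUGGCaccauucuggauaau
mmu-miR-670-5p: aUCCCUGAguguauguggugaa
mmu-miR-670-3p: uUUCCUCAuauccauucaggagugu
mmu-miR-764-5p: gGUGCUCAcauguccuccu
mmu-miR-764-3p: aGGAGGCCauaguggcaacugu
mmu-miR-708-5p: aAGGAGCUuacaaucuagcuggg
mmu-miR-708-3p: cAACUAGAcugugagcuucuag
mmu-miR-744-5p: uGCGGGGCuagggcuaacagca
mmu-miR-744-3p: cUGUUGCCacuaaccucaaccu
mmu-miR-676-3p: cCGUCCUGagguuguugagcu
miR-743a-5p and miR-871-5p lie at chrX:66776794-66776815 and chrX:66810472-66810494, both on the minus strand, and which arm their assays read is not known. miR-764 lies within Htr2c, a serotonin receptor gene, miR-708 within Tenm4, a teneurin gene, miR-744 within Map2k4, a stress kinase gene, and miR-676 within Eda, the ectodysplasin gene.

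Each assay was read once per sample and gave a threshold cycle (Ct), in which 1 cycle less is a doubling of the starting amount and a blank means that no Ct was called. The listed Ct values ran from 10 to just under 28, and a blank does not say whether a reading lay outside either end. Marker miRNAs of brain and of other cells were read side by side. miR-128a and miR-137, both rich in neurons, had a Ct in all 12 samples with medians of 14.4 and 14.6, and miR-124a had a Ct in 11 samples with a median of 14.6. The glial miR-219 and miR-338-3p were read in all 12 at medians of 18.1 and 19.1, and miR-219-2-3p and miR-338-5p in all 12 at 18.8 and 17.9. From the same list miR-219-1-3p was read in 11 at a median of 24.8. An assay named miR-338 was read in 11 at 18.7, with a lowest Ct of 10.1. Readings of miR-9, which is abundant in brain, were listed in only 4 samples, at Ct 10.1 to 12.3, and miR-132 in 9, at 10.2 to 10.8, next to the lowest Ct in the file. miR-138, also listed for neurons, was read in 10 samples at Ct 10.1 to 24.0. Markers of other cells were read too: miR-223 of myeloid cells in all 12 samples by both of its assays, at medians of 13.7 and 15.9, and the blood-cell miRNAs miR-451 and miR-142-3p in all 12, at 18.1 and 17.8. From the same list, miR-144 was read in 8 samples at a median of 22.7 and miR-142-5p in 11 at 25.6. Of the muscle miRNAs, miR-133a was read in all 12 at a median of 16.1, miR-206 in all 12 at 22.7 and miR-208b in 1. The human and rat miR-1 assays were read in 11 samples at 21.7 and 22.1, and miR-133b in 11 at 20.7. The liver miRNA miR-122 was read in 11 at 24.1. The part of these other cells in the members' levels was not tested.

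One sample stood apart from the rest, wt control 1. It alone lacked a Ct for 6 members (miR-665, miR-676, miR-708, miR-744, miR-873 and miR-874), and it alone had a Ct for 9 others. Every comparison with the wt control group uses it, and several calls and counts differ without it. The cause of the difference was not tested.

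The members were detected less often than the rest of the panel. A Ct was listed for 427 of their 732 values, or 58.3% (58.4% without wt control 1), and for 5668 of the 6696 values of the other 558 miRNA assays, or 84.6% (85.3% without wt control 1). Assays numbered below 600 reached 86.3% over 370 assays, those numbered 1000 or higher 70.8% over 62 assays, and the # assays in the members' own range of numbers reached 76.7% over 10 assays. A Ct in all 12 samples was found for 17 members, or 27.9%, against 318 of the other assays, or 57.0%. At the other end, 17 members, again 27.9%, had a Ct in a single sample, against 26 of the others, or 4.66%. Between these, 8 members had a Ct in 11 samples and 19 in 2 to 10. Where they were read, the members were not late: their median Ct was 18.6, against 19.6 for the others. In bulk tissue, fewer cells of a type and less RNA per cell cannot be told apart, and this holds for every level below.

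The members did not form one class. The 23 assays with a listed human counterpart had a Ct in 58.7% of values, with 5 of them in all 12 samples, and the 38 without a listed one, miR-632 included, in 58.1%, with 12 in all 12 samples. Among those 38, the 8 assays for the testis-expressed cluster on the X chromosome (miR-741, miR-743a, miR-871, miR-878-3p, both miR-881 assays and both miR-883b assays) were seldom read in hippocampus. They had a Ct in 17.7% of values, none in all 12 samples and 5 in a single sample. The other 30 assays without a listed counterpart reached 68.9%, with 12 in all 12 samples. The 4 members listed as matching other RNA classes, miR-712, miR-715, miR-720 and miR-805, had a Ct in 97.9% of values and a median Ct of 14.0. miR-712, miR-720 and miR-805 were read in all 12 samples and miR-715 in 11, lacking only P2rx7-/- control 3. miR-664, which lies within the snoRNA gene Snora36b, is not on that list and was read in all 12 samples.

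Among the 17 members read in all 12 samples, the earliest by median Ct were miR-720 (Ct 11.9 to 13.8), miR-805 (12.6 to 14.0), miR-721 (12.2 to 21.8) and miR-690 (13.3 to 14.8). miR-664 followed at 14.5 to 15.3, miR-652 at 15.3 to 16.4, miR-935 at 15.5 to 17.6 and miR-872 at 15.1 to 17.9. The middle was held by miR-672 (16.2 to 20.2), miR-706 (17.3 to 19.3), miR-700 (18.8 to 20.6), miR-671-3p (17.7 to 22.4) and miR-712 (20.1 to 21.7). miR-702 (21.7 to 22.8), miR-701 (23.8 to 26.4), miR-704 (23.5 to 26.5) and miR-671-5p (23.8 to 24.8) were the latest. miR-721 spanned the widest range of the 17. Ct values of different assays depend on each assay's efficiency, so this order describes the readings and not molecule numbers.

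**Figure D1:**
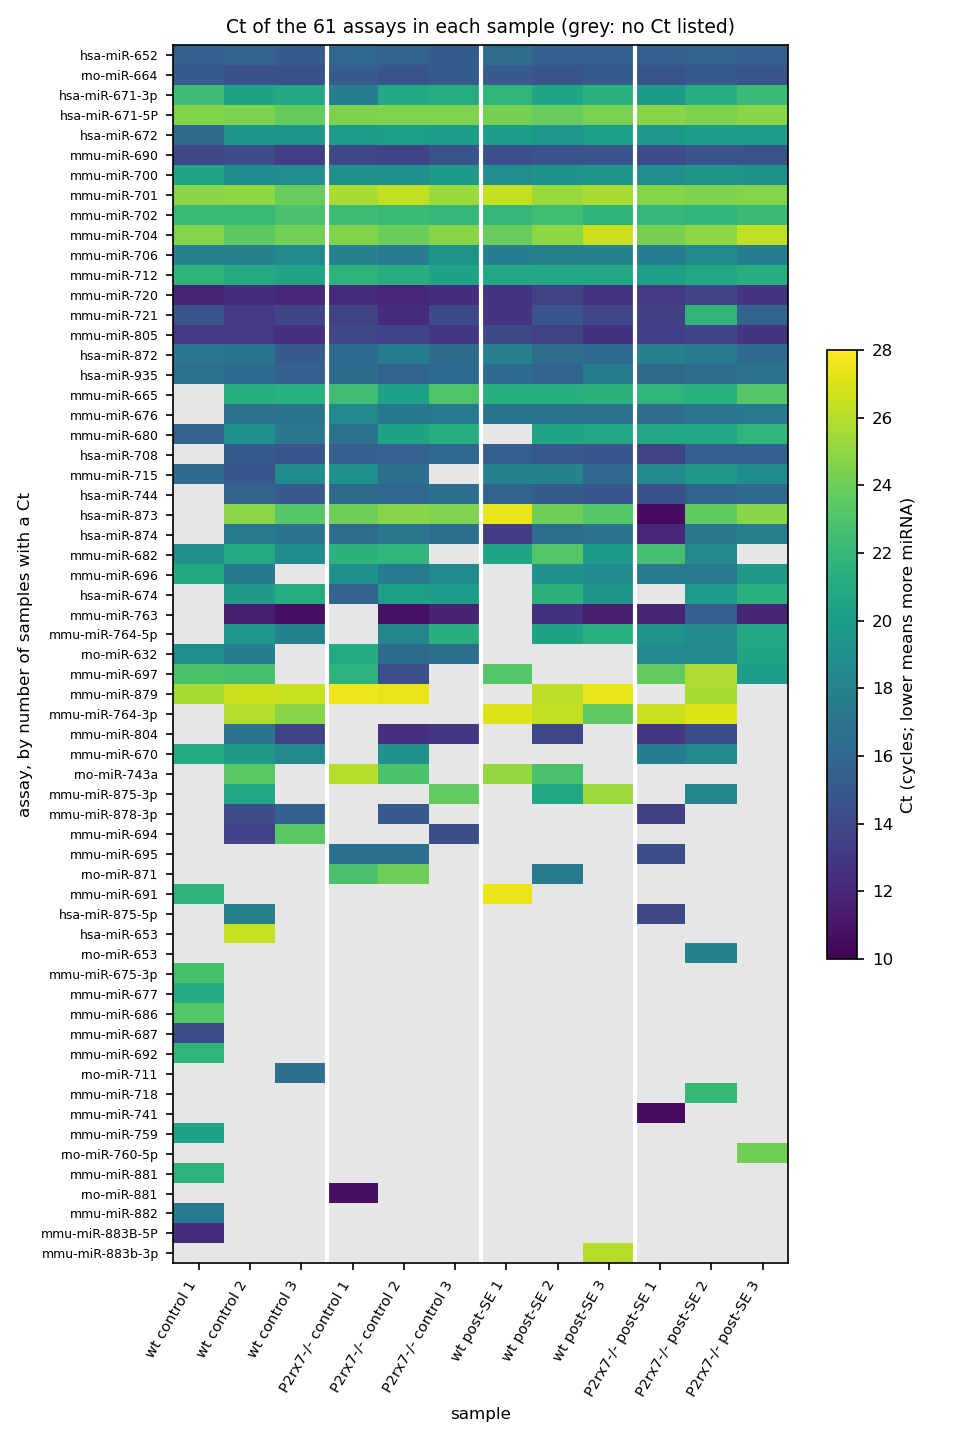
Ct of each of the 61 members in the 12 samples by group, with blanks where no Ct was listed. The block of members read in all 12 samples holds 17 assays, and 9 members have their only reading in wt control 1.

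The number of members with a Ct ranged from 29 of 61 in wt post-SE 1 to 42 in wt control 2. In the wt control samples it was 35, 42 and 36, in P2rx7-/- control 35, 39 and 32, in wt post-SE 29, 36 and 34, and in P2rx7-/- post-SE 38, 39 and 32. The groups overlapped, with means of 37.7 ± 3.79, 35.3 ± 3.51, 33 ± 3.61 and 36.3 ± 3.79 (SD, n = 3 each). As shares of the 61, these counts ran from 47.5 to 68.9%, while 78.0 to 89.4% of the other 558 assays had a Ct per sample.

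**Figure D2:**
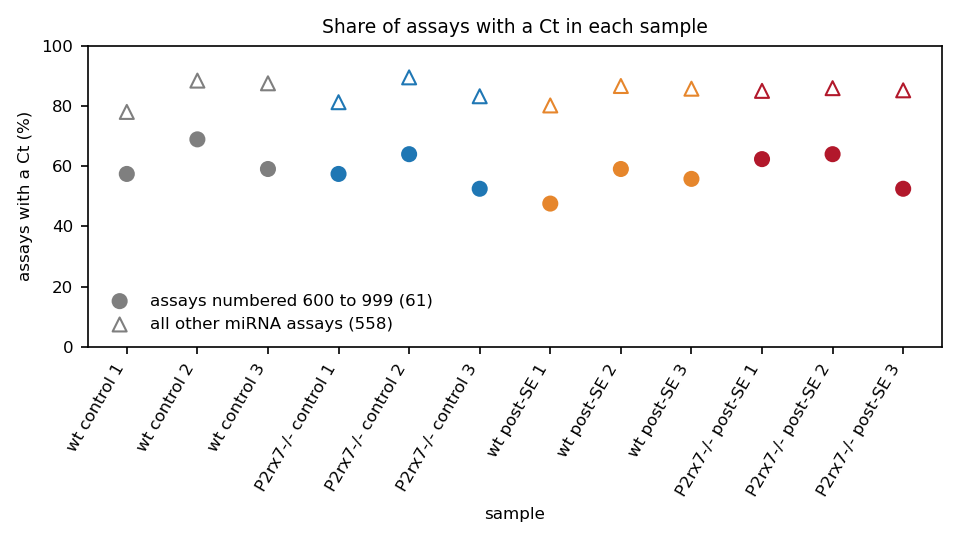
Percent of assays with a Ct in each of the 12 samples, filled circles for the 61 members and open triangles for the other 558 miRNA assays, coloured by group. In every sample the members (47.5 to 68.9%) lie below the other assays (78.0 to 89.4%).

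Presence differed completely between groups for a few members, and no test was run on presence. miR-632 was read at Ct 19.0 and 17.8 in wt control 1 and 2 but not in wt control 3. In P2rx7-/- control it was read at 21.0, 16.3 and 16.5, in no wt post-SE sample, and in P2rx7-/- post-SE at 18.6, 18.5 and 20.7. It was the only member with a Ct in all 3 samples of the P2rx7-/- post-SE group and in none of the wt post-SE group, a split seen for 1 of the other 558 assays. miR-670 was read in the wt control samples at Ct 21.0, 19.7 and 18.6 and in no wt post-SE sample. Among P2rx7-/- samples it was read in 1 control, at 19.1, and in post-SE 1 and 2, at 17.8 and 18.6. It was the only member lost in this way between wt control and wt post-SE, as were 3 of the other assays.

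The arms of miR-764, within the span of Htr2c, were read unevenly. miR-764-3p was read in no P2rx7-/- control sample, in 2 wt control samples at 25.9 and 24.8, in wt post-SE at 27.1, 26.3 and 23.5, and in 2 P2rx7-/- post-SE samples at 26.6 and 27.1. Most of these readings lie near the upper end of the listed Ct. miR-743a, with 5 readings in all, had none in P2rx7-/- post-SE.

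Counted over all 61, presence differed both ways in each comparison. In P2rx7-/- control against wt control, 13 members had a Ct in more samples, 20 in fewer and 28 in equal numbers, against 77, 71 and 410 of the other 558 assays. In wt post-SE against wt control the counts were 11, 20 and 30, against 84, 85 and 389 of the others, and the wt control samples are shared with the first comparison. Both rest in part on wt control 1. Without it, compared by the share of a group's samples with a Ct, they were 7, 14 and 40 in P2rx7-/- control and 6, 14 and 41 in wt post-SE, an alternative chosen after seeing the data. The other assays then also had more with fewer samples, at 39, 86 and 433 in both comparisons. In P2rx7-/- post-SE they were 11, 7 and 43 against P2rx7-/- control (66, 55 and 437 of the others), and 15, 8 and 38 against wt post-SE (72, 50 and 436 of the others).

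Members read in a single sample had Ct values from 10.6 to 26.5 with a median of 21.1, and 2 of the 17 read at Ct 26 or later. The plant negative control ath-miR159a was read in wt control 1 (23.9) and P2rx7-/- post-SE 1 (13.5) too. Whether the single readings of members reflect the miRNAs named was not tested. The 9 found in wt control 1 alone were miR-675-3p (22.8), miR-677 (21.1), miR-686 (23.3), miR-687 (14.1), miR-692 (21.8), miR-759 (20.4), the mouse miR-881 assay (21.6), miR-882 (17.3) and miR-883b-5p (12.3). Of the other 558 assays, 10 were read there alone. The remaining 8 were spread over 7 samples. miR-711 was read in wt control 3 (16.6), miR-718 in P2rx7-/- post-SE 2 (22.0), miR-741 in P2rx7-/- post-SE 1 (10.6), miR-760-5p in P2rx7-/- post-SE 3 (24.1) and miR-883b-3p in wt post-SE 3 (26.1). The human miR-653 assay was read in wt control 2 (26.5) and the rat miR-653 assay in P2rx7-/- post-SE 2 (18.0), never in the same sample. Likewise the rat miR-881 assay was read in P2rx7-/- control 1 (10.7) and the mouse assay elsewhere. Assays named for one miRNA in different species thus gave a single reading each, in different samples.

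The members with partial detection were miR-665, miR-676, miR-680, miR-708, miR-715, miR-744, miR-873 and miR-874 in 11 samples, miR-682 and miR-696 in 10, miR-674, miR-763 and miR-764-5p in 9, and miR-632, miR-697 and miR-879 in 8. miR-764-3p and miR-804 were read in 7 samples, miR-670 in 6, miR-743a and miR-875-3p in 5, miR-878-3p in 4, miR-694, miR-695 and miR-871 in 3, and miR-691 and miR-875-5p in 2. miR-763 was read early, at Ct 10.7 to 15.5, yet only in 9 samples.

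For levels, each Ct was set against the mean Ct of the 335 miRNA assays read below Ct 28 in all 12 samples, and the difference turned into a fold change (FC) against the average of the wt control samples. Of the 61 members, 17 passed this filter. The called counts use the study's thresholds: an average FC above 1.5 is up and below 0.6 is down, with no test. Tests are limma fits to all 335 assays with Benjamini-Hochberg adjusted p, or exact 2-sided permutation tests, in which 3 against 3 samples cannot go below p = 0.1. In limma no member and none of the 335 assays passed an adjusted p of 0.05 in any of the 4 pairs of groups, the averages over both genotypes or both treatments, or the interaction. At unadjusted p below 0.05 limma counted 0 of the 17 members and 20 of all assays (5.97%) in P2rx7-/- control against wt control, and 1 member and 13 assays (3.88%) in wt post-SE against wt control. It counted 3 members and 10 assays (2.99%) in P2rx7-/- post-SE against P2rx7-/- control, and 1 member and 4 assays (1.19%) in P2rx7-/- post-SE against wt post-SE. For SE averaged over genotypes the counts were 1 and 11 (3.28%), for genotype averaged over treatments 0 and 16 (4.78%), and for the interaction 1 and 8 (2.39%). These counts moved with single samples. In P2rx7-/- control against wt control they were 1 member (miR-702) and 9 assays without wt control 1, and 1 member each and 40, 31 and 37 assays without wt control 2, wt control 3 and P2rx7-/- control 2. The most members, 2, were counted without P2rx7-/- control 3, with 19 assays. In wt post-SE against wt control they were 0 members and 12 assays without wt control 1, 0 and 25 without wt post-SE 3, 1 and 37 or 36 without wt control 2 or 3, and 2 and 16 without wt post-SE 1. In P2rx7-/- post-SE against P2rx7-/- control 0 members and 10 assays were counted without P2rx7-/- post-SE 2. Without P2rx7-/- control 1 or 2 they were 1 member each and 9 or 13 assays. In P2rx7-/- post-SE against wt post-SE no member was counted without wt post-SE 1, P2rx7-/- post-SE 2 or P2rx7-/- post-SE 3, with 6, 6 and 4 assays. The counts were 2 members and 5 assays without P2rx7-/- post-SE 1, and 1 member and 11 assays without wt post-SE 3. Over all samples left out in turn, SE averaged over genotypes had 1 to 4 members and 9 to 17 assays, genotype averaged over treatments 0 members and 7 to 20 assays, and the interaction 1 to 2 members and 4 to 17 assays. For a typical member the 95% interval extended 0.94 on the log2 scale to either side of a difference between 2 groups. An estimated difference smaller than this had an interval that included 0 for such a member. Larger ones did not pass an adjusted p of 0.05 either, with 3 pools.

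Scaling to other references moved all assays together. Against snoRNA202, the median log2 difference of the 335 assays shifted by -0.64 in P2rx7-/- control against wt control, -0.72 in wt post-SE against wt control, 0.10 in P2rx7-/- post-SE against P2rx7-/- control and 0.19 in P2rx7-/- post-SE against wt post-SE. It shifted by -0.31 for SE averaged over genotypes, -0.23 for genotype averaged over treatments and 0.83 for the interaction. The snoRNA202 wells had medians of Ct 10.1 to 10.5, near the lowest listed Ct. In wt control 3 only 3 of 16 wells gave a Ct, and in wt control 1 wells read up to Ct 23.3. The part of these wells in the values scaled to snoRNA202, here and below, was not tested. Against snoRNA135 the shifts were -0.30 in wt post-SE against wt control, 0.30 in P2rx7-/- post-SE against wt post-SE, -0.17 for SE, 0.17 for genotype and 0.26 for the interaction. In wt control 1 the snoRNA135 wells read from Ct 11.5 to 26.6 around a median of 14.4. Wells of wt post-SE 1 and P2rx7-/- post-SE 1 read down to 11.8. How far such wells set the values scaled to snoRNA135, here and below, was not tested. Scaling to the median gave 0.14 in P2rx7-/- post-SE against wt post-SE and 0.11 for genotype, and scaling to all detected assays gave -0.10 in P2rx7-/- control against wt control and 0.10 for the interaction. The counts at unadjusted p below 0.05 moved as well. Scaled to snoRNA202 they were 1 member and 49 assays in P2rx7-/- control against wt control, 3 and 62 in wt post-SE against wt control, 2 and 7 in P2rx7-/- post-SE against P2rx7-/- control, 2 and 17 for SE and 1 and 21 for the interaction. Scaled to snoRNA135, 11 assays were counted in P2rx7-/- control against wt control and 4 for genotype. With the Ct limit of 26, which miR-701 does not meet, no member was counted in wt post-SE against wt control, in P2rx7-/- post-SE against wt post-SE or for the interaction.

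Within groups the members read in all 12 samples varied less than the median assay. Their pooled SD had a median of 0.496 cycles, against 0.636 over all 335 assays (0.480 against 0.533 without wt control 1), and 11 of the 17 lay below the median of all. miR-664 (0.302), miR-671-5p (0.349) and miR-652 (0.360) were the steadiest. The widest were miR-721 (2.20), miR-671-3p (1.18) and miR-672 (1.16), and in each of these 1 sample lay far from the rest.

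miR-672 stood at 6.01, 0.458 and 0.364 times the wt control average in the wt control samples. It stood at 0.506, 0.342 and 0.437 in P2rx7-/- control, 0.504, 0.515 and 0.289 in wt post-SE, and 0.388, 0.436 and 0.435 in P2rx7-/- post-SE. All samples but wt control 1 lay within the narrow band from 0.289 to 0.515, and without wt control 1 its pooled SD was 0.301 cycles. miR-671-3p stood at 0.609, 1.63 and 1.01 in wt control, 16.6, 1.63 and 1.55 in P2rx7-/- control, 1.10, 1.89 and 0.856 in wt post-SE, and 2.44, 1.43 and 0.661 in P2rx7-/- post-SE. One sample, P2rx7-/- control 1, lay far above all others, and the other 11 overlapped across groups. The same hairpin's other arm did not share that reading: miR-671-5p stood at 1.27, 1.02 and 1.19 in P2rx7-/- control.

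miR-721 stood at 0.703, 1.73 and 0.820 in wt control, 1.77, 3.71 and 1.21 in P2rx7-/- control, and 3.39, 0.644 and 0.973 in wt post-SE. In P2rx7-/- post-SE it stood at 1.22, 0.00563 and 0.370. The reading of P2rx7-/- post-SE 2 was the lowest by far, at Ct 21.8 where the other 11 samples ranged from 12.2 to 15.7, and the remaining values overlapped between groups.

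**Figure D3:**
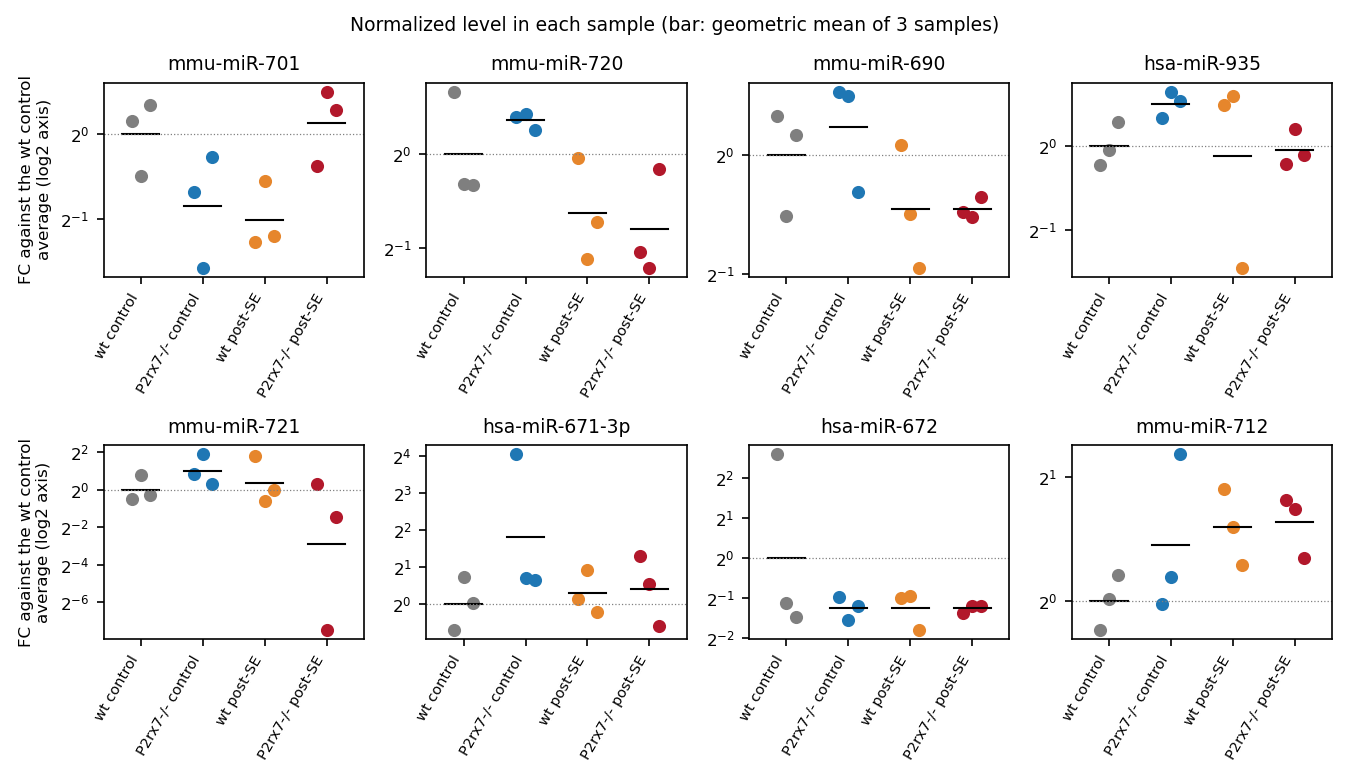
FC against the wt control average on a log2 axis for 8 members in 4 groups, with a point for each of the 3 samples and a bar at their geometric mean. miR-701 has its lowest bar in wt post-SE (samples at 0.417, 0.682 and 0.438), and single samples set miR-672 (6.01), miR-671-3p (16.6) and miR-721 (0.00563) apart.

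The comparison of P2rx7-/- control with wt control asked what loss of the receptor does without seizures. miR-935, within the span of Cacng8, was the only member whose groups did not overlap. It stood at 0.852, 0.967 and 1.21 in wt control and 1.26, 1.56 and 1.45 in P2rx7-/- control, so all 3 P2rx7-/- samples lay above all 3 wt samples, by a narrow gap. It averaged 1.42 ± 0.153 (SD, n = 3), with a log2 difference of 0.50 (SE 0.49, limma adjusted p = 0.770). Scaled to snoRNA202, whose wells read up to Ct 23.3 in wt control 1, miR-935 averaged 0.920. Without P2rx7-/- control 1 or wt control 3 its average was 1.51 and 1.57, past the threshold for up. Of all 335 assays 14.0% did not overlap in this comparison, 3.58% with P2rx7-/- higher and 10.4% with P2rx7-/- lower, so 1 member of 17 is no result about the members.

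miR-701 was lower in P2rx7-/- control. It stood at 1.11, 0.712 and 1.26 in wt control and at 0.623, 0.338 and 0.832 in P2rx7-/- control, where the highest P2rx7-/- sample lay above the lowest wt sample. Its average FC was 0.598 ± 0.248 (SD, n = 3), with a log2 difference of -0.84 (SE 0.42, limma adjusted p = 0.615, exact permutation p = 0.2). The call of down was lost without P2rx7-/- control 2 (0.728), wt control 1 (0.637) or wt control 3 (0.673), and when scaled to the median (0.639) or to snoRNA135 (0.604).

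By the FC thresholds 6 of 17 members were called, or 35.3%, against 36.7% of all 335 assays: 4 up (miR-671-3p, miR-700, miR-702 and miR-721; 21.2% of all were up) and 2 down (miR-672 and miR-701; 15.5% of all were down). The split of 4 up and 2 down became 1 and 3 when scaled to snoRNA202, 5 and 1 when scaled to the median and 2 and 2 when scaled to all detected assays. Over all assays 71 were up and 52 down, 38 and 142 when scaled to snoRNA202, 83 and 41 when scaled to the median and 64 and 64 when scaled to all detected assays. With geometric means of the FCs, 3 members were up and 2 down (58 and 64 of all assays). With the reference FCs scaled to an arithmetic mean of 1, 2 were up and 2 down (52 and 68 of all), without miR-700 and miR-702. Of the 6 calls, all but that of miR-671-3p ended when 1 sample was left out. miR-672 went from 0.429 to 1.06 without wt control 1 and to 0.259 without wt control 3. miR-671-3p averaged 6.59 and still 1.59 without P2rx7-/- control 1, and miR-721 averaged 2.23 ± 1.31 (SD, n = 3) and 1.49 without P2rx7-/- control 2.

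miR-700 stood at 0.588, 1.47 and 1.16 in wt control and 1.89, 1.55 and 1.09 in P2rx7-/- control, with overlap. Its average of 1.51 fell below the threshold without wt control 1 (1.17), P2rx7-/- control 1 (1.33) or P2rx7-/- control 2 (1.49), and it was 0.977 when scaled to snoRNA202. miR-702 stood at 1.51, 1.16 and 0.572 in wt control and 1.40, 1.5 and 1.85 in P2rx7-/- control. wt control 2 and 3 lay below all P2rx7-/- samples and wt control 1 among them. The average of 1.58 ± 0.236 (SD, n = 3) was 1.20 without wt control 3, 1.45 without P2rx7-/- control 3 and 1.01 when scaled to snoRNA202.

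Relative to all assays the 17 members leaned higher in P2rx7-/- control: 14 had a log2 difference above 0, against 160 of all 335, with a median of 0.24 against -0.02. The lowest adjusted p of a member was 0.615.

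The comparison of wt post-SE with wt control follows seizures with the receptor present. miR-701 was lower after SE, at 0.417, 0.682 and 0.438 in wt post-SE against 1.11, 0.712 and 1.26 in wt control. All 3 post-SE samples lay below all 3 controls, the nearest pair being wt post-SE 2 and wt control 2. The average FC was 0.512 ± 0.148 (SD, n = 3), and 0.431 to 0.576 with any 1 of the 6 samples left out. The log2 difference was -1.00 (SE 0.42, 95% interval -1.94 to -0.07, limma adjusted p = 0.664, exact permutation p = 0.1). Without wt control 1 it was -0.95, with an interval that included 0 (-2.05 to 0.15). With the replicate numbers as a block in limma the interval also included 0 (-2.02 to 0.02).

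miR-712, a spacer fragment of the ribosomal RNA precursor, was higher after SE except when scaled to snoRNA202, where its average was 0.915. The wells of that reference read up to Ct 23.3 in wt control 1, and their part in this exception was not tested. miR-712 stood at 0.853, 1.01 and 1.16 in wt control and at 1.87, 1.51 and 1.22 in wt post-SE. The groups did not overlap, though wt post-SE 3 and wt control 3 were close. It averaged 1.53 ± 0.322 (SD, n = 3), with a log2 difference of 0.60 (SE 0.36, limma adjusted p = 0.664), and lost the call without wt control 1 (1.39) or wt post-SE 1 (1.37). The tRNA fragment miR-720 stood at 1.57, 0.798 and 0.797 in wt control and at 0.965, 0.460 and 0.605 in wt post-SE, where wt post-SE 1 lay among the controls. It averaged 0.677 ± 0.260 (SD, n = 3), with a log2 difference of -0.63 (limma adjusted p = 0.664). Its average was 0.829 without wt control 1, where the log2 difference was -0.33, and 0.533 without wt post-SE 1.

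Groups that did not overlap were found for these 2 members, miR-712 and miR-701, of 17, against 11.0% of all assays (5.97% higher, 5.07% lower after SE). The FC thresholds called 6 members, or 35.3%, against 35.8% of all assays: 4 up (miR-700, miR-702, miR-712 and miR-721; 23.3% of all) and 2 down (miR-672 and miR-701; 12.5% of all). Without wt post-SE 1 the split was 0 up and 5 down of 18 members, and 69 and 50 of 353 assays. The split became 0 up and 7 down when scaled to snoRNA202 (39 and 164 of all assays), 0 and 3 when scaled to snoRNA135 (58 and 64 of all), and 2 and 2 when scaled to all detected assays (72 and 38 of all). Over all assays the main split was 78 and 42. In wt control 1 the wells of snoRNA202 read up to Ct 23.3 and those of snoRNA135 up to 26.6. Their part in the splits scaled to these references was not tested. The wt control samples are the same as in the comparison of genotypes, so miR-672 was again called only through wt control 1, from 0.436 to 1.05 without it, and stood at 0.263 without wt control 3.

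miR-700 stood at 2.31, 1.31 and 0.910 in wt post-SE, from above to within the controls. Its average of 1.51 became 1.13 without wt control 1, 1.11 without wt post-SE 1 and 0.876 when scaled to snoRNA202. miR-702 stood at 2.06, 1.13 and 1.58 in wt post-SE, where the lowest sample lay within the controls. Its average of 1.59 ± 0.465 (SD, n = 3) became 1.20 without wt control 3, 1.36 without wt post-SE 1 and 0.963 when scaled to snoRNA202. miR-721 averaged 1.67 ± 1.5 (SD, n = 3) through wt post-SE 1 and was 0.810 without it, 1.35 without wt control 1 and 0.950 when scaled to snoRNA202. Across the 17 members 7 had a log2 difference above 0, against 138 of 335, and the median of the average FC was 1.03 against 0.993.

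The comparison of P2rx7-/- post-SE with P2rx7-/- control follows seizures without the receptor, and here miR-720, miR-690, miR-935 and miR-704 were lower in every post-SE sample than in any control. miR-720 stood at 1.02, 1.05 and 0.932 times the P2rx7-/- control average in P2rx7-/- control and at 0.382, 0.340 and 0.701 in P2rx7-/- post-SE. The controls were tight and all 3 post-SE samples lay below them. The average FC was 0.474 ± 0.198 (SD, n = 3), from 0.364 to 0.545 with any 1 of the 6 samples left out and from 0.458 to 0.511 over the scalings. Its log2 difference of -1.15 (SE 0.41, 95% interval -2.07 to -0.23) had the fourth lowest p of the 335 assays, with a limma adjusted p of 0.998 and an exact permutation p of 0.1.

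miR-690, within the span of Fgf12, stood at 1.23, 1.20 and 0.681 in P2rx7-/- control and at 0.606, 0.590 and 0.664 in P2rx7-/- post-SE. The post-SE samples were nearly equal and lay just below the lowest control, P2rx7-/- control 3. Its average FC was 0.620 ± 0.0387 (SD, n = 3), or 0.515 without that control, with a log2 difference of -0.69 (SE 0.38, limma adjusted p = 0.998). miR-935 stood at 0.888, 1.10 and 1.02 in P2rx7-/- control and at 0.606, 0.809 and 0.651 after SE, again without overlap. It averaged 0.689 ± 0.106 (SD, n = 3), with a log2 difference of -0.55 (limma adjusted p = 0.998). The P2rx7-/- control samples of miR-935 are those that also lay above wt control. Against the wt control average its P2rx7-/- post-SE samples stood at 0.860, 1.15 and 0.924, within the wt control range of 0.852 to 1.21.

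miR-704, within the span of Pdia4, stood at 0.977, 1.28 and 0.802 in P2rx7-/- control and at 0.732, 0.698 and 0.278 after SE. All post-SE samples were lower, P2rx7-/- post-SE 3 by most. Its average of 0.569 ± 0.253 (SD, n = 3) lost the call without that sample (0.720), without P2rx7-/- control 2 (0.643) or when scaled to snoRNA202 (0.637), and the log2 difference was -0.94 (SE 0.75, limma adjusted p = 0.998). The 4 members without overlap, miR-690, miR-704, miR-720 and miR-935, were all lower after SE, against 6.57% of all 335 assays without overlap, 2.69% lower and 3.88% higher.

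miR-701 went the other way in P2rx7-/- mice. It stood at 1.11, 0.604 and 1.49 in P2rx7-/- control and at 1.38, 2.51 and 2.16 in P2rx7-/- post-SE, where the lowest post-SE sample lay below the highest control. Its average FC was 2.02 ± 0.580 (SD, n = 3), from 1.57 to 2.48 with any 1 of the 6 samples left out, and its log2 difference 0.97 (SE 0.42, limma adjusted p = 0.998). miR-721 averaged 0.267 ± 0.313 (SD, n = 3), with a log2 difference of -3.87 (SE 1.61), through sample values of 0.613, 0.00283 and 0.186. Its average was 0.402 without P2rx7-/- post-SE 2 and 0.0952 without P2rx7-/- post-SE 1. miR-671-3p averaged 0.435 ± 0.257 (SD, n = 3) but 0.944 without P2rx7-/- control 1.

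By the FC thresholds 5 of 17 members were called, or 29.4%, against 25.1% of all assays: 1 up (miR-701; 17.9% of all) and 4 down (miR-671-3p, miR-704, miR-720 and miR-721; 7.16% of all). Over all assays 60 were up and 24 down. With the reference FCs scaled to an arithmetic mean of 1, 1 member was up and 5 were down (46 and 37 of all). Of the 17, 4 had a log2 difference above 0, against 180 of 335, and the median of the average FC was 0.949 against 1.07. The P2rx7-/- control samples are the same as in the comparison with wt control, where 14 of 17 lay above 0. These counts are therefore not independent. With the wt control samples as reference of P2rx7-/- post-SE, 3 members were up (miR-671-3p, miR-702 and miR-712) and 2 down (miR-672 and miR-721), with 33.7% of all assays called. That call of miR-672 rests on wt control 1: against the other wt controls its P2rx7-/- post-SE samples stood at 0.900, 1.05 and 1.08. The calls of miR-671-3p (1.80, 1.10 and 0.522) and miR-712 (1.54, 1.52 and 1.19) also ended without it, since these values average below 1.5, while those of miR-702 and miR-721 were kept.

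The comparison of P2rx7-/- post-SE with wt post-SE asks which levels after seizures depend on the genotype. miR-701 was the member that stood out. It was at 0.835, 1.37 and 0.877 times the wt post-SE average in wt post-SE and at 1.55, 2.82 and 2.42 in P2rx7-/- post-SE. Every P2rx7-/- sample lay above every wt sample. The average FC was 2.26 ± 0.651 (SD, n = 3), from 2.01 to 2.66 with any 1 of the 6 samples left out. Its log2 difference of 1.13 (SE 0.42, 95% interval 0.20 to 2.07) had the second lowest p of all 335 assays, with a limma adjusted p of 0.999 and an exact permutation p of 0.1. It was 1 of 17 members without overlap, against 5.67% of all assays and 2.09% with P2rx7-/- higher.

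miR-671-5p stood at 1.54, 1.63 and 0.919 in wt post-SE and at 0.637, 1.20 and 0.958 in P2rx7-/- post-SE, both against the wt control average. The groups overlapped through wt post-SE 3. It averaged 0.707 with a log2 difference of -0.55 (limma adjusted p = 0.999), and without wt post-SE 3 its average was 0.590, past the threshold for down. miR-721 was again called down through its lowest sample, and averaged 0.626 without P2rx7-/- post-SE 2, 0.146 without P2rx7-/- post-SE 1 and 0.660 without wt post-SE 1.

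The FC thresholds called 2 of 17 members, or 11.8%, against 21.5% of all assays: miR-701 up (17.0% of all up) and miR-721 down (4.48% of all down). Scaled to snoRNA202 or to snoRNA135 the split was 2 up and 1 down, while that of all assays went from 57 and 15 to 89 and 11 or 111 and 9. A log2 difference above 0 was found for 9 of 17 members, against 164 of 335, and the median of the average FC was 1.01 against 1.04.

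The interaction compares the effect of SE between the genotypes. miR-701 had the lowest p of all 335 assays here. Its level after SE was -1.00 on the log2 scale against control in wt and 0.97 in P2rx7-/-, a difference of 1.97 (SE 0.60, 95% interval 0.65 to 3.29), with a limma adjusted p of 0.851. In wt all 3 post-SE samples were below the controls, and in P2rx7-/- 2 of 3 were above all controls. The sign was the same in every scaling, with values from 1.61 to 2.80 over the alternatives run. Without wt control 1 it was 1.88, the second lowest p of 382 assays, with an adjusted p of 0.983. At Ct 23.8 to 26.4 it was among the later readings and was not in the set read below Ct 26 in all 12 samples. miR-671-5p had an interaction of -0.76, which was 0.07 when scaled to snoRNA202, and that of miR-721, -4.23, rested on P2rx7-/- post-SE 2 (limma adjusted p = 0.851 for both).

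Averaged over genotypes, miR-720 was lower after SE in both, at 0.677 in wt and 0.474 in P2rx7-/-. The averaged log2 difference was -0.89 (SE 0.29, 95% interval -1.54 to -0.24, limma adjusted p = 0.795), from -1.20 to -0.76 over the alternatives run and -0.76 without wt control 1. Of its 6 post-SE samples, 5 lay below all controls of their genotype. Its interaction was -0.52 (SE 0.58), and -0.86 (SE 0.56) without wt control 1, so a difference between the genotypes was not detected. miR-690 was next, at 0.763 in wt and 0.620 in P2rx7-/-, with an averaged log2 difference of -0.57 (SE 0.27). The genotype averaged over treatments gave a lowest member adjusted p of 0.930, for miR-671-3p.

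**Figure D4:**
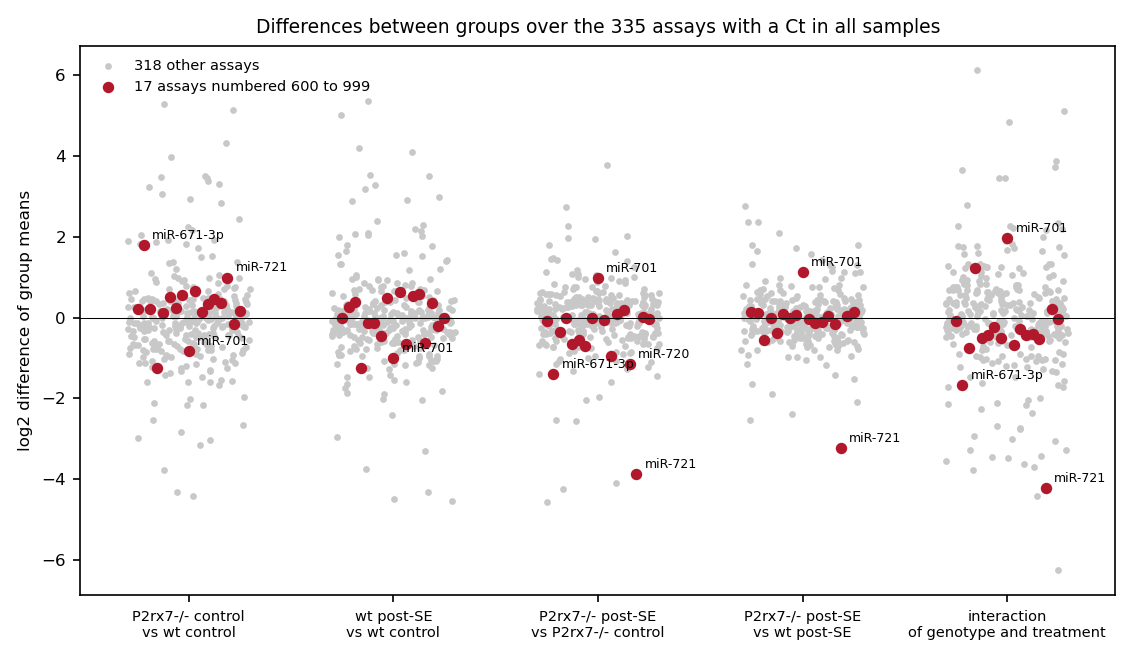
Log2 differences of the 335 assays in 5 contrasts, with the 17 members in red and the other 318 assays in grey. miR-701 lies at 1.13 in P2rx7-/- post-SE against wt post-SE and at 1.97 in the interaction, and miR-721 at -3.87 in P2rx7-/- post-SE against P2rx7-/- control.

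Leaving out wt control 1 brought the members it alone lacked into the comparison: 382 assays and 23 members then had a Ct below 28 in all samples. P2rx7-/- control against wt control then had 7 members up (miR-665, miR-671-3p, miR-702, miR-706, miR-720, miR-721 and miR-874) and 0 down. Of all assays 25.9% were called, 75 up and 24 down. miR-665 stood at 0.813, 3.20 and 0.552, so its call rests on P2rx7-/- control 2. miR-671-3p (13.0, 1.28 and 1.23) and miR-721 (1.49, 3.13 and 1.03) each had 1 sample above 1.5. For miR-702 and miR-720 all 3 samples were above 1.5. wt post-SE against wt control had 4 up (miR-702, miR-706, miR-744 and miR-874) and 1 down (miR-701), with 22.5% of all (64 up and 22 down). P2rx7-/- post-SE against P2rx7-/- control had 6 up (miR-676, miR-701, miR-708, miR-744, miR-873 and miR-874) and 4 down (miR-671-3p, miR-704, miR-720 and miR-721), with 27.0% of all (75 up and 28 down). P2rx7-/- post-SE against wt post-SE had 3 up (miR-701, miR-873 and miR-874) and 1 down (miR-721), with 22.0% of all (66 up and 18 down). miR-701 thus kept its calls after SE, and its call in control mice was lost.

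Among the members gained in this way, miR-708, miR-744 and miR-676 were chosen for a closer look after their values were seen. miR-744, within the span of Map2k4, stood at 0.883 and 1.13 times the average in the remaining wt controls, 1.35, 1.52 and 1.70 in wt post-SE, 0.997, 0.921 and 0.782 in P2rx7-/- control and 1.99, 1.19 and 0.960 in P2rx7-/- post-SE. All wt post-SE samples lay above both wt controls, while P2rx7-/- post-SE 3 lay within its controls. miR-708, within the span of Tenm4, stood at 0.938 and 1.07 in wt control, a tight 1.32, 1.35 and 1.35 in wt post-SE, 1.20, 0.927 and 0.884 in P2rx7-/- control and 2.48, 1.09 and 1.11 in P2rx7-/- post-SE. Its wt groups did not overlap, and in P2rx7-/- mice 1 post-SE sample was far above the rest.

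miR-676, within the span of Eda, stood at 1.19 and 0.837 in wt control, 1.66, 1.33 and 1.31 in wt post-SE, 0.553, 1.11 and 1.12 in P2rx7-/- control and 1.43, 1.45 and 1.20 in P2rx7-/- post-SE. In both genotypes every post-SE sample lay above every control. In wt mice, for miR-744, miR-708 and miR-676 alike, this sets 3 samples against 2, which separate more easily than 3 against 3. How many of the 382 assays separated in this setting was not counted, so the separation is no result about these members. In wt mice after SE the averages were 1.34 for miR-708, 1.52 for miR-744 and 1.43 for miR-676, and in P2rx7-/- mice 1.57, 1.54 and 1.54. The log2 differences averaged over genotypes were 0.48, 0.58 and 0.56, each with a limma adjusted p of 0.962 over 382 assays. Their interactions were 0.11, -0.04 and 0.11.

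Of the other members gained, miR-665 was read at Ct 20.3 to 23.2, and 2 had readings far earlier than the rest. miR-873 was read at Ct 10.5 in P2rx7-/- post-SE 1 and at 23.2 to 27.4 in its other samples. miR-874 was read at Ct 12 in P2rx7-/- post-SE 1 and 13.1 in wt post-SE 1, and at 16.4 to 17.8 elsewhere. The calls of miR-873 and miR-874 after SE include these readings. For miR-874 in P2rx7-/- post-SE, sample 1 stood at 16.3 times the P2rx7-/- control average and samples 2 and 3 at 0.697 and 0.461. Against wt post-SE they stood at 8.18, 0.351 and 0.232, with a log2 difference of -0.20, so both up calls rest on sample 1 and the other samples lay below the reference average. In wt post-SE it stood at 26.8, 2.04 and 1.30 times wt control. For miR-873, P2rx7-/- post-SE 2 and 3 stood at 1.78 and 0.821 against P2rx7-/- control and at 2.72 and 1.26 against wt post-SE.

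Where the panel reads both arms of a hairpin, the arm with the lower Ct was mostly the same in every sample. For miR-671 the 5p assay was later than the 3p assay in all 12 samples, by 2.18 to 6.72 cycles, the largest gap being in P2rx7-/- control 1, where the 3p arm was read early. The miR-676 # assay was later than miR-676 by 3.15 to 5.04 cycles in all 11 samples with both, and the miR-744 # assay later than miR-744 by 2.63 to 4.58 in all 11. The miR-708 # assay was later by 9.18 to 11.8 cycles in the 4 samples with both.

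For miR-879 the order was the reverse, with the # assay earlier in all 8 samples, the difference being -7.38 to -4.70 cycles. miR-764-5p was earlier than miR-764-3p in all 6 samples with both, with differences of -8.49 to -2.12. Only miR-872 and miR-674 changed order between samples. The miR-872 # assay was later in 7 of 12 samples, with differences from -1.61 to 1.37, and the miR-674 # assay later in 1 of 9, P2rx7-/- control 1, with differences from -3.76 to 2.96. Assay efficiencies differ, so a gap in cycles describes the readings and not the ratio of the arms.

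**Figure D5:**
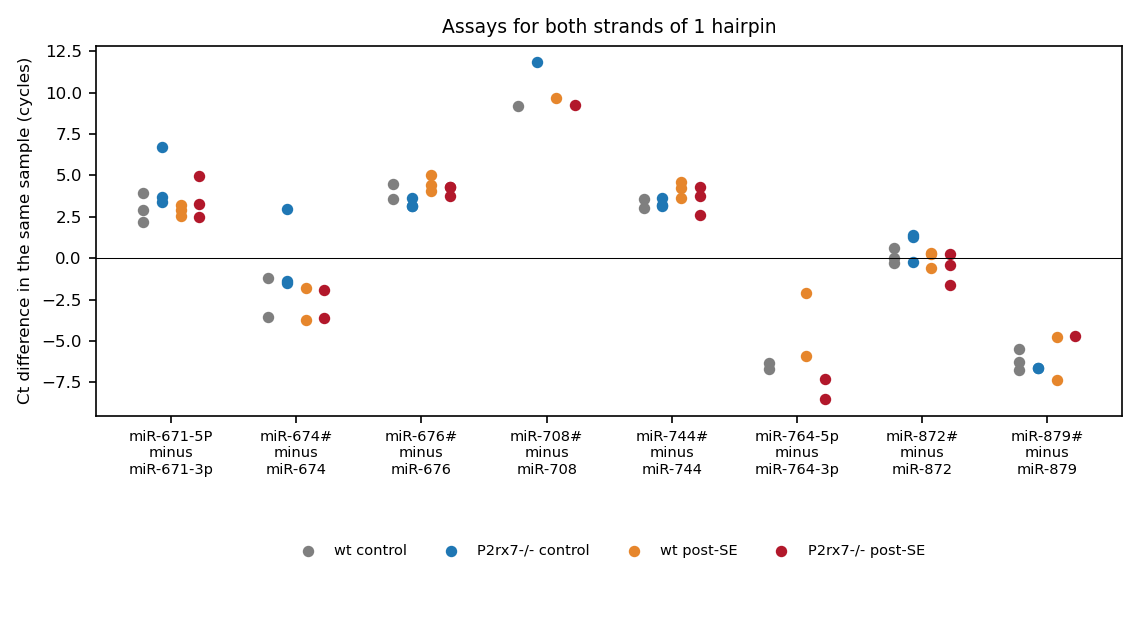
Difference in Ct between the assays for both arms of 8 hairpins, a point for each sample in which both were read. The miR-671 gap is 2.18 to 6.72 cycles in 12 samples, and the miR-879 difference -7.38 to -4.70 in 8.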

How the data were processed

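Ct values were the ones the authors deposited, 1 per assay and sample, without normalization. The ratio table that the authors deposited holds their own comparisons and was not used. Which software called the Ct values is not given in the sources used here. Each Ct was subtracted from the sample's mean over the 335 miRNA assays with a Ct below 28 in all 12 samples. FC was 2 to the power of the difference from the reference group's average, and the arithmetic mean of 3 FCs was called up above 1.5 and down below 0.6. P2rx7-/- post-SE was set against its own vehicle group, with wt control as an alternative reference. limma was fitted to all 12 samples with 1 coefficient per group and empirical Bayes moderation, and p-values were adjusted by Benjamini-Hochberg over 335 assays. Exact permutation tests enumerated all regroupings of 3 against 3. The code was tested on simulated data. Alternatives were other normalizers, Ct limits, filters, averaging, a replicate block and leaving out each sample.

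Every member with a Ct in all 12 samples was named with its range. Values in every sample were given for members called by FC, members whose groups did not overlap and the 3 members with the lowest p in a comparison, where these added a value. Members lacking a Ct in some samples were named with their number of samples. The lists were members with a human counterpart, the testis-expressed X cluster, members matching other RNA classes and hairpins with both arms. Members and lists were chosen with earlier results of these data known. R 4.3.3 with limma 3.58.1 and Python 3.11.15 with numpy 2.4.6, pandas 2.3.3, scipy 1.17.1 and matplotlib 3.10.9 were used.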

Additional observations from a re-analysis of the deposited data

Results flagged for a closer look

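The effect of SE on miR-701 differed between the genotypes by 1.97 on the log2 scale at an unadjusted p below 0.05 in limma, and the adjusted p was 0.851.

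The plant miRNA ath-miR159a is on the panel as a negative control, with 2 wells per sample. A Ct was listed in 2 of 24 values (8.33%): 23.9 in wt control 1 and 13.5 in P2rx7-/- post-SE 1. Those samples also hold the 9 members read in wt control 1 alone and the early readings of miR-873 and miR-874 in P2rx7-/- post-SE 1. The cause was not tested.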

How the results depend on the processing

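Average FCs of the 17 members in 4 comparisons were recomputed under the alternatives. Those that the thresholds call crossed 1 in 8 of 268 values, and those not called in 135 of 710, miR-935 scaled to snoRNA202 among them. Without wt control 1, miR-672 went to 1.06 in P2rx7-/- control and 1.05 in wt post-SE against wt control. Scaled to snoRNA202, miR-700 went to 0.977 and 0.876 in these comparisons, and in wt post-SE miR-702 went to 0.963, miR-712 to 0.915 and miR-721 to 0.950. The snoRNA202 wells of wt control 1 read up to Ct 23.3, and their part in these values was not tested. In wt post-SE miR-721 went to 0.810 without wt post-SE 1. With any 1 sample left out, miR-672 ranged from 0.259 to 1.06 and 0.263 to 1.05 in these comparisons, miR-721 from 0.810 to 2.20 in wt post-SE, and the genotype average of miR-672 from -0.99 to 0.03. limma differences of the 17 members changed sign in 230 of 2247 values, none of them a difference with an unadjusted p below 0.05. Among the 3 members with the lowest p per contrast, 3 of 394 values did: the interaction of miR-671-5p (0.0677) and the wt post-SE difference of miR-712 (-0.13), both scaled to snoRNA202, and the genotype average of miR-672 without wt control 1 (0.0277). Apart from the samples left out, the cause was not tested.

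Counts of called members in P2rx7-/- control against wt control, wt post-SE against wt control and P2rx7-/- post-SE against P2rx7-/- control or against wt post-SE were 11, 11, 15 and 8 among 30 members with a Ct in at least 2 of 3 samples of each group (40.8, 39.5, 31.8 and 28% of 478 assays). With a p below 0.05 in the methods' two-group test also required they were 0, 1, 1 and 1 (2.09, 1.79, 0.896 and 0.597% of 335 assays). Scaling to snoRNA135 gave 3 in wt post-SE against wt control (36.4% of 335 assays), and the Ct limit of 26 gave 3 and 1 in the last 2 comparisons (22.0 and 19.5% of 313 assays). Leaving out each sample gave 5 to 7, 5 to 8, 4 to 10 and 1 to 4, with 10 reached without wt control 1 and 4 without it, wt post-SE 3 or P2rx7-/- post-SE 3. Of all assays, 25.9 to 44.8, 22.5 to 41.2, 24.8 to 35.6 and 22.0 to 31.8% were then called. Detection ranged from 57.4 to 59.3% of values, and 17 to 23 members were read in all remaining samples. The limma count of members at adjusted p below 0.05 was 0 in every alternative. Over all assays it reached 2 for SE averaged over genotypes, scaled to the median or with the Ct limit of 26. It was 1 for SE averaged without wt control 2, and 1 without P2rx7-/- control 2 for SE averaged and for SE in each genotype.

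The labels' replicate numbers were not used as pairs, since not every pair with the same number correlated over 0.1. Deviations from group means correlated by -0.227 to 0.277 in 18 pairs with the same number, 4 of them over 0.1 (3 of these among the samples numbered 3 of the groups other than wt control, at 0.251 to 0.277), and 6 of 12 samples correlated best with their own number. With the replicate block in limma, the count at adjusted p below 0.05 was 0 in each contrast, and at unadjusted p below 0.05 it went from 13 to 10 assays and from 1 to 0 members in wt post-SE against wt control, and from 3 to 2 members in P2rx7-/- post-SE against P2rx7-/- control. miR-701 was the member lost in both, with 95% intervals of -2.02 to 0.02 and -0.05 to 1.99.

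Limits are 3 pools per group, 1 reading per assay and sample, and no RNA integrity measure. Blanks do not say whether a reading failed, lay below the lowest listed Ct or lay past the last cycle. snoRNA202 wells had medians of Ct 10.1 to 10.5, near the lowest listed Ct, and 3 of 16 wells gave a Ct in wt control 3. In wt control 1, wells read up to Ct 23.3 for snoRNA202 and up to 26.6 for snoRNA135. Arms are unknown for the assays whose names lack them.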
